A study of Oryza sativa with 4 samples.

Results

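The genes described here are those whose level in leaves differed at least 4-fold between both replicates of control plants while both replicates of heat-derived plants stayed close to each other. They were chosen by their measured counts in all 4 libraries. A member had whole expected counts in every library and at least 20 of them in each. Its CPM, the count scaled to a common library total, differed at least 4-fold between CS replicates 1 and 2 and at most 1.5-fold between HDS replicates 1 and 2. Of the 37858 genes in the table, 14468 had whole counts of at least 20 in every library, and 64 of these, or 0.442%, were members. Since these values chose the genes, the folds between replicates are given as a description and without a test.

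All plants were rice of the cultivar Nipponbare, a japonica line, and all grew without heat treatment of their own. HDS plants came from seeds that had matured at 30 °C, and CS plants came from control seeds that had matured at 25 °C. RNA was taken from fully developed leaves of 2 biological replicates per treatment. Per the study's methods, a replicate was 1 plant, so every library carries both the treatment and whatever set its plant or its preparation apart. The RefSeq table used here matched 1 of the identifiers in the count table and 0 of the 64 members, so the members carry only their Rice Annotation Project identifiers here, without name or function, and the leaf label was not checked against marker genes.

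The level of a transcript in a leaf depends on the age of the leaf, the hour of sampling, light, nutrition and stress, and plants that share a treatment can differ in each of these. A library also carries its own history of RNA extraction and library preparation. With a pair of replicates per treatment, a gene whose replicates disagree has no further value to show which one is typical. In whole leaves, fewer cells of a type and less RNA per cell cannot be told apart. The identifiers of the Rice Annotation Project give the chromosome and then a number that runs along it in regular steps, which left room for gene models to be inserted later. Identifiers that fall between the regular steps are called off-step here.

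Of the 64 members, 62 were lower in CS replicate 1 than in CS replicate 2, and 2 were higher. The 62 genes shared 1 profile. Their counts lay between 82 and 20691 in HDS replicate 1, with a median of 252.5, and between 81 and 21484 in HDS replicate 2, with a median of 233.5. In CS replicate 1 they lay between 20 and 5221, with a median of 41, and in CS replicate 2 between 107 and 25465, with a median of 305. CS replicate 1 was thus the low library in all 62, and both HDS libraries lay above it in each of them, against 52.6% of the 14468 genes. The choice of genes low in CS replicate 1 partly set this order.

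**Figure D1:**
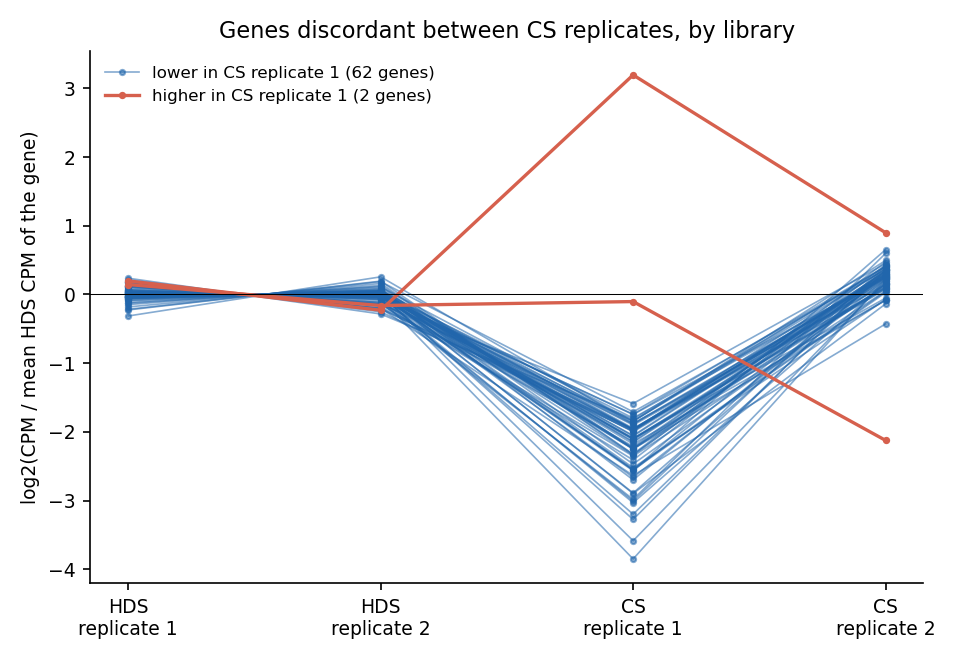
Level of the 64 members in each library, as log2 of the CPM divided by the mean HDS CPM of the same gene. Each line is 1 gene. The 62 genes lower in CS replicate 1 (blue) form a single dip there, and the 2 genes higher in CS replicate 1 (red) follow different courses.

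The fold between the CS libraries ranged from 4.01 to 16.9 among these 62 genes, with a median of 5.11. The widest belonged to Os05g0163250 on chromosome 5. It had 822 and 730 counts in HDS replicates 1 and 2, against 49 and 921 counts in CS replicates 1 and 2. This is 45.7 ± 2.52 CPM in HDS plants and 28.3 ± 35.6 CPM in CS plants (SD, n = 2 each). The SD between the CS plants was larger than their mean, while the HDS plants differed by 1.08-fold. The fold of 16.9 between the CS libraries had a 95% interval of 12.6 to 23.0 from the exact Clopper-Pearson method. Such intervals treat reads as independent, so they cover at most counting error and not the spread between plants. Where reads are not independent molecules, they are too narrow.

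Os06g0255200 on chromosome 6 had 492 and 482 counts in the HDS libraries, against 37 and 566 in CS replicates 1 and 2, a fold of 13.7 between the CS libraries. Os04g0675101 on chromosome 4 had 435 and 415 counts in the HDS libraries, against 40 and 572 in the CS libraries, a fold of 12.8. In both genes the HDS libraries were nearly equal, at 1.02-fold and 1.01-fold, and lay slightly below CS replicate 2. Os07g0645200 on chromosome 7 had 280 and 264 counts in the HDS libraries, against 27 and 353 in the CS libraries. Os09g0252700 on chromosome 9 had 470 and 412 counts in the HDS libraries, against 50 and 601 in the CS libraries. Os04g0555600 on chromosome 4 had 344 and 339 counts in the HDS libraries, against 42 and 435 in the CS libraries. These 3 genes repeated the same order of libraries, with folds of 11.7, 10.8 and 9.29 between the CS libraries.

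Among the 10 genes with the widest fold, 4 were on chromosome 2. That chromosome held 9 members in all, or 0.522% of its 1725 genes that could be members, against 0.442% over all chromosomes. Os02g0830801 had 187 and 172 counts in the HDS libraries, against 20 and 204 in the CS libraries. Os02g0553802 had 267 and 288 counts in the HDS libraries, against 39 and 345 in the CS libraries. Both HDS libraries of these genes stood within 1.5-fold of CS replicate 2 on the CPM scale. Os02g0470600 and Os02g0708500 differed a little from this profile, as they were the only 2 of the 62 genes whose mean HDS level was more than 1.5-fold from CS replicate 2. Os02g0470600 had 12.1 and 10.4 CPM in the HDS libraries, against 1.42 and 17.0 CPM in CS replicates 1 and 2. Os02g0708500 had 127 and 131 counts in the HDS libraries, against 20 and 206 counts in CS replicates 1 and 2. Their HDS level lay between the CS levels, at 0.661 and 0.636 of CS replicate 2.

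Abundant transcripts took part as well. Os07g0683900 on chromosome 7, the member with the highest mean level, had 20691 and 21484 counts in the HDS libraries, against 5221 and 25465 in the CS libraries. Its fold of 4.38 between the CS libraries had an exact 95% interval of 4.25 to 4.51. Os01g0963600 on chromosome 1 had 18746 and 18627 counts in the HDS libraries, against 3996 and 20014 in the CS libraries. Os12g0516200 on chromosome 12 had 4192 and 4377 counts in the HDS libraries, against 822 and 4723 in the CS libraries. At this depth counting error is a small part of the fold. At the other end, 36 of the 62 genes had under 50 counts in CS replicate 1, and the lowest bound of any interval was 2.64-fold. In 28 of the 62 genes the whole interval lay at 4-fold or more. The intervals take no account of the choice of genes by these same counts, so this number is only a description.

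The limits of the rule cut through a continuous range. Just inside the 4-fold limit was Os01g0650800, with 216 and 197 counts in the HDS libraries, against 56 and 250 in the CS libraries and a fold of 4.01. Just outside was Os07g0619600, with 176 and 152 counts in the HDS libraries, against 53 and 236 in the CS libraries and a fold of 3.99. Os02g0202300 was the member nearest the limit on the HDS libraries, at 1.48-fold, and Os03g0554950 missed that limit at 1.51-fold. Os02g0708500 passed the count limit with 20 counts in CS replicate 1, and Os01g0182832 missed it with 19. All 6 of these genes were lower in CS replicate 1.

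The level of HDS plants lay near CS replicate 2 in nearly all of the 62 genes. The mean HDS level was within 1.5-fold of CS replicate 2 in 60 of them. Over all 14468 genes that could be members, 92.7% had a mean HDS level within 1.5-fold of CS replicate 2, and 80.5% within 1.5-fold of CS replicate 1. Closeness to CS replicate 2 was therefore common in the table and not particular to the members. On the log2 scale, the position of the HDS level between the lower CS library (0) and the higher one (1) had a median of 0.893, with a range from 0.779 to 1.19. HDS plants had a median of 0.837 of the CPM in CS replicate 2, and a median of 4.42 times the CPM in CS replicate 1, over the 62 genes. Both HDS libraries were below CS replicate 2 in 52 of these genes, above it in 5 and on either side of it in 5. The share of all 14468 genes with both HDS libraries below CS replicate 2 was 31.4%. As the rule took genes in which CS replicate 2 was high relative to CS replicate 1, this order was partly set by the choice.

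Os08g0202400 on chromosome 8 lay highest relative to CS replicate 2. It had 9.54 and 7.35 CPM in the HDS libraries, against 1.36 and 6.27 CPM in CS replicates 1 and 2. Its mean in HDS plants was 1.35 times CS replicate 2 and 6.21 times CS replicate 1. It is named here for its values, as it lay outside the rule for naming genes. Within HDS plants the 62 genes showed no common order, as 34 were higher in HDS replicate 1, against 54.8% of all 14468 genes.

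The 2 members higher in CS replicate 1 had profiles unlike each other. Os01g0508500 on chromosome 1 had 242 and 188 counts in the HDS libraries, against 182 and 50 in CS replicates 1 and 2. HDS plants were 1.07 times CS replicate 1 here, so that CS replicate 2 was the low library. Os04g0473150 on chromosome 4 had 210 and 150 counts in the HDS libraries, against 1498 and 340 in the CS libraries. This is 10.6 ± 2.20 CPM in HDS plants and 58.4 ± 54.6 CPM in CS plants (SD, n = 2 each). The HDS libraries lay below both CS libraries, at 0.536 of CS replicate 2 and 0.109 of CS replicate 1.

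A fold of 4 or more between the CS libraries, whatever the HDS libraries did, was seen in 81 of the 14468 genes, 74 lower and 7 higher in CS replicate 1. The limit on the HDS libraries kept 83.8% of the 74 genes that were lower, against 94.2% of all 14468 genes that met this limit. Of the 17 genes it removed, 12 were lower and 5 were higher in CS replicate 1. The same rule with the treatments exchanged found 5 genes that differed at least 4-fold between the HDS replicates and at most 1.5-fold between the CS replicates. All 5 were higher in HDS replicate 1. At a fold of 2 or more, 482 genes were lower in CS replicate 1 and 124 were higher. Between the HDS libraries, 13 were lower and 153 were higher in replicate 1.

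**Figure D2:**
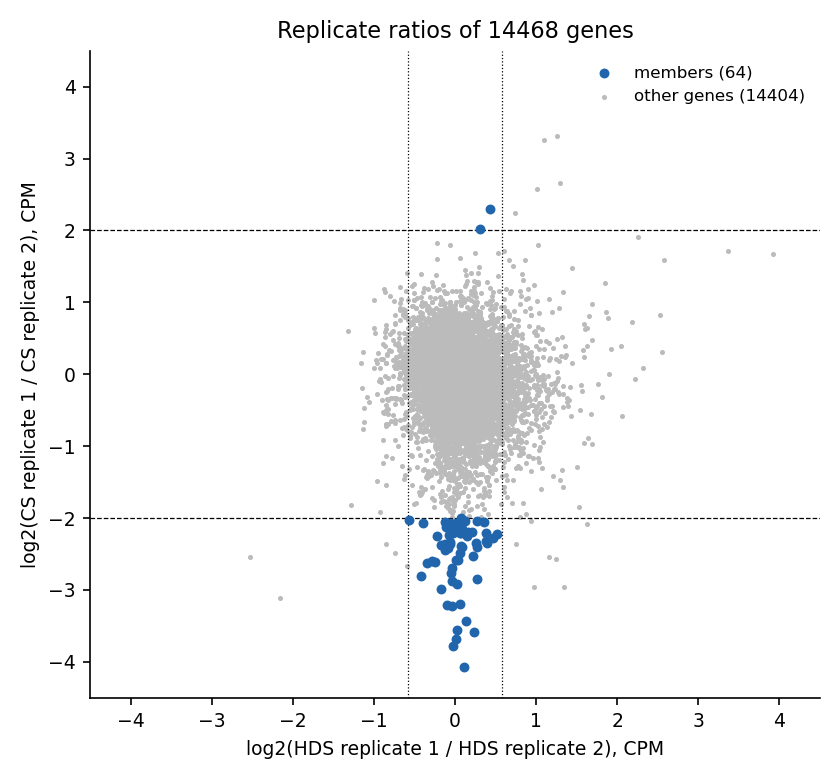
log2 ratio of replicate 1 to replicate 2 in CS plants (vertical) and in HDS plants (horizontal) for the 14468 genes with whole counts of at least 20, each point being 1 gene. Dashed lines mark the 4-fold limit and dotted lines the 1.5-fold limit. The 64 members (blue) lie within the dotted lines, 62 of them at the bottom.

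Each library was then set against the other 3, a comparison chosen after the values had been seen. CS replicate 1 stood at least 2-fold below all 3 others in 219 genes and at least 2-fold above them in 13, counted among genes in which the 3 others were within 1.5-fold of one another. Such genes numbered 12334 for CS replicate 1 and 10226 to 10600 for the other libraries, so the counts come from sets of unlike size. HDS replicate 1 stood below in 1 gene and above in 21. HDS replicate 2 stood below in 9 genes and above in 0, and CS replicate 2 stood below in 6 genes and above in 3. Of the 219 genes, 55 were members. At 4-fold, CS replicate 1 stood below the others in 35 genes, which are members by definition, since such a gene meets every limit of the rule. No other library stood apart from its 3 others in more than 1 gene.

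**Figure D3:**
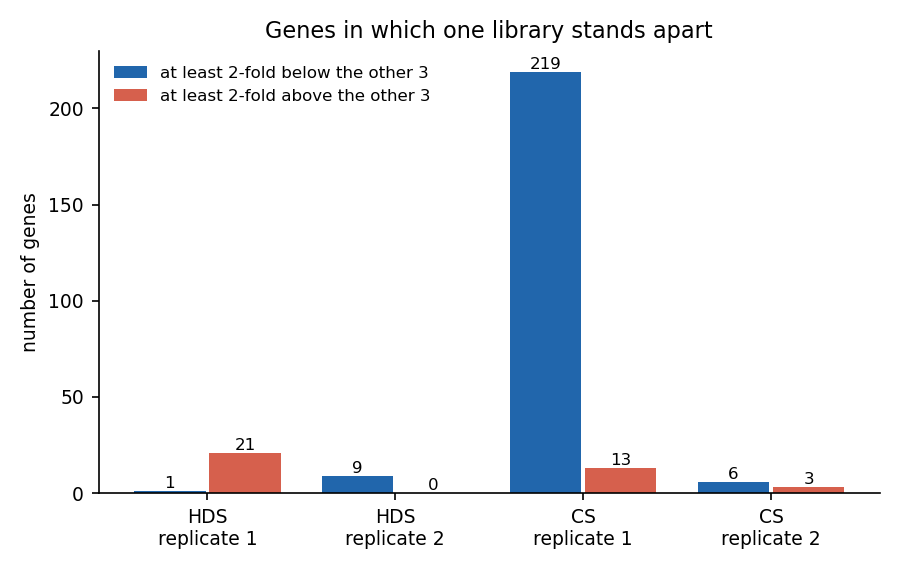
Number of genes in which 1 library was at least 2-fold below (blue) or above (red) each of the other 3 libraries, which were themselves within 1.5-fold of one another. The bar of 219 genes for low values in CS replicate 1 exceeds the other 7 bars, which range from 0 to 21.

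CS replicate 1 also differed in other measures. It had 15444235 expected counts, against 16605260 to 17298384 in the other libraries, and 26321 genes with at least 1 count, against 26917 to 27359. Its 10 most abundant genes held 8.51% of its counts, against 6.18% to 6.65% elsewhere, and its 100 most abundant genes held 23.9%, against 19.1% to 20.3%. The 62 genes held 0.361% and 0.375% of the counts in HDS replicates 1 and 2, against 0.0868% and 0.419% in CS replicates 1 and 2. The part of depth and library composition in the low levels was not tested. The median log2 ratio of CS replicate 1 to CS replicate 2 over the 14468 genes was -0.08. With TMM scaling of the libraries in place of totals it was 0.02, and 53 genes lower and 2 higher in CS replicate 1 met the rule, all 55 of them members.

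The members differed in their identifiers, which the rule did not use, from the other genes that met its count limits. An off-step identifier was carried by 21 of the 64 members, or 32.8%, against 4.82% of the 14468 genes that could be members. Over the whole table of 37858 genes the share was 21.1%, so the limits on counts by themselves lowered it. Examples among the genes named above are Os05g0163250, Os04g0675101, Os02g0830801 and Os02g0553802. Off-step genes had lower levels than other genes, with medians of 7.71 and 20.8 CPM. The 62 genes lower in CS replicate 1 also had lower levels, with a median of 12.4 CPM, against 19.9 CPM for all 14468 genes. Among the 7234 genes at or below the median level, 7.53% were off-step. Seen from the other side, 2.87% of the off-step genes and 0.305% of the other genes that could be members were among the 62. The folds themselves were alike, with a median of 5.15 between the CS libraries in the 20 off-step genes of the 62 and 5.11 in the other 42.

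The share of off-step identifiers changed along the ratio of the CS libraries. It was 28.4% among the 74 genes at least 4-fold lower in CS replicate 1, and 11.5% among the 314 genes in the bin that ends at a log2 ratio of -1. It was 3.30% among the 6390 genes between -0.5 and 0, and 10.5% among the 124 genes at more than 1. Genes that differed between the CS libraries thus had off-step identifiers more often in both directions, and most often where CS replicate 1 was far lower. Between the HDS libraries the share was 11.0% among the 309 genes with a log2 ratio between -1 and -0.5 and 3.27% among the 153 genes at more than 1. What off-step genes have in common besides their identifiers was not tested, and gene length, strand and coding status were not analysed here.

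**Figure D4:**
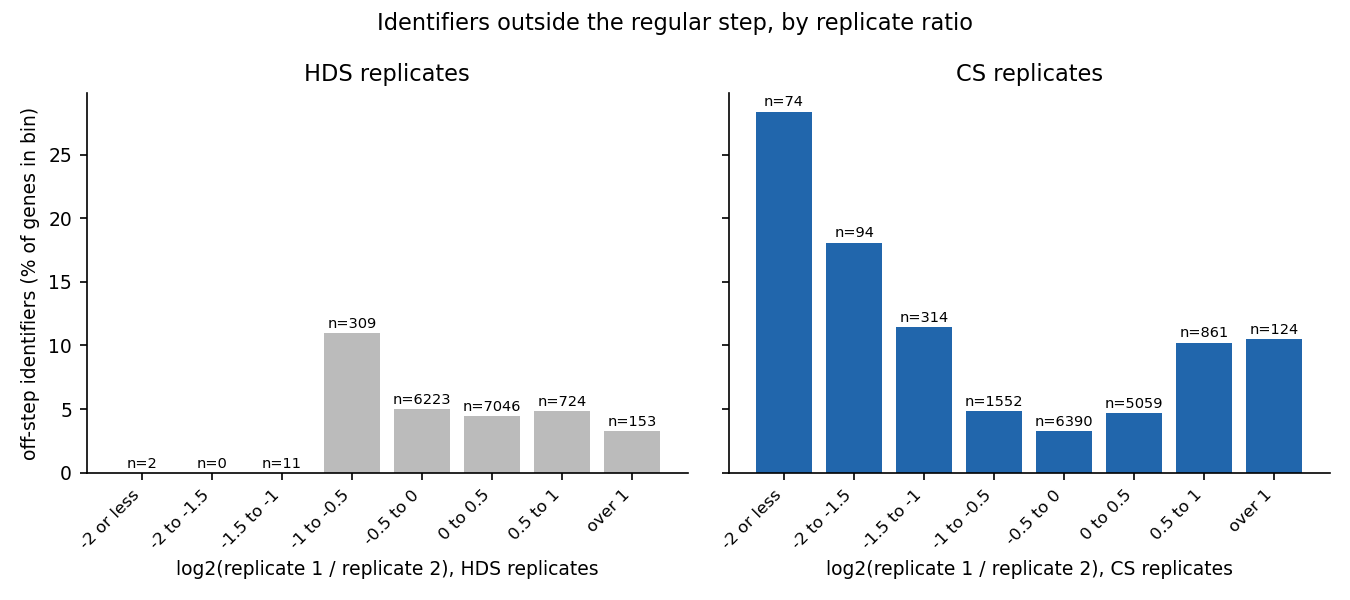
Share of genes with an off-step identifier (vertical, %) by the log2 ratio of replicate 1 to replicate 2, in HDS plants (left) and in CS plants (right), with the number of genes above each bar. Bins of under 20 genes have no bar. In CS plants the share is 28.4% in the lowest bin and 3.30% between -0.5 and 0.

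The members were spread over the genome. By their identifiers they lay on 11 of the 12 chromosomes, with 11 genes on chromosome 6, 9 on chromosome 2, 8 on chromosome 1 and 0 on chromosome 11. Chromosome 6 had the highest share, at 0.926% of its 1188 genes that could be members, against 0.442% in all. No members were listed next to each other. The closest were Os06g0113150 and Os06g0113950, with 4 genes between them. This depends on the limit of the rule. The member Os01g0552050 had a log2 ratio of CS replicate 1 to CS replicate 2 of -2.094. Os01g0552000, the gene before it among those that could be members, had -1.997 and narrowly missed the limit. Of the 74 genes that were listed next to one of the 62, could be members and were not, 5 were at least 2-fold lower in CS replicate 1. That is 6.76%, against 3.33% of all 14468 genes. Their median log2 ratio of CS replicate 1 to CS replicate 2 was -0.08, like that of all genes.

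None of the 42 genes that the study names was a member. Of these, 18 had whole counts of at least 20 in every library and could be members. At a share of 0.442% over all such genes, 0 among 18 is no result about the study's genes. The ratio of CS replicate 1 to CS replicate 2 in the 18 genes lay between 0.619 and 1.45. The highest ratio was that of OsUBQ (Os03g0234200), a ubiquitin gene that the study used as a reference in leaves. It had 776 and 753 counts in the HDS libraries, against 1038 and 798 in the CS libraries, a ratio of 1.45 with an exact 95% interval of 1.32 to 1.59. OsActin (Os11g0163100), the other reference gene, had 6631 and 6500 counts in the HDS libraries, against 5233 and 6386 in the CS libraries, a ratio of 0.913. The other 24 genes, with OsSLB1 and OsHd1 among them, had fewer counts or counts that were not whole, so they could not be members. Among them OsGhd7 (Os07g0261200), a repressor of heading in long days, had 11 and 12 counts in the HDS libraries, against 3 and 19 in the CS libraries. OsSHR2 (Os03g0433200), which the study lists among genes of stomatal development, had 27 and 18 counts in the HDS libraries, against 3 and 17 in the CS libraries. CS replicate 2 exceeded CS replicate 1 by 5.68-fold in OsGhd7, with an exact 95% interval of 1.67 to 30.0, and by 5.08-fold in OsSHR2, with an interval of 1.47 to 27.1. At so few counts the size of these differences is poorly known. Both genes are named for the widest folds among the 24, a choice that the intervals do not take into account. In OsMOC1, OsEhd2, OsDTH7 and OsD27 the order was reversed, with CS replicate 1 higher by 2.79-fold, 1.34-fold, 1.06-fold and 1.01-fold.

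The comparison of HDS with CS plants asks which genes the maturing temperature of the seed left at another level in leaves. The study called a gene when edgeR's exactTest gave P under 0.05, without adjustment, and the log2 fold change reached 0.37 up or down. With these limits 0 of the 64 members were higher and 1 was lower in HDS plants. Over all 29698 genes tested, 4.18% were called higher and 3.7% lower. Among the 14468 genes that could be members, 3.41% were called higher and 4.36% lower. The 1 member called was Os04g0473150, with a log2 fold change of -2.56 (P = 0.000192 and adjusted P = 0.0114 by edgeR's exact test with Benjamini-Hochberg adjustment). By edgeR's quasi-likelihood test, 0 of 64 members had an adjusted P under 0.05, against 0.699% of the 22184 genes tested. At an unadjusted P under 0.05 this test found 1 member, against 2047 of the 22184 genes tested. With adjusted P-values DESeq2 found 0 members, against 547 of the 29698 genes entered, before its own filter on mean counts. A wide spread between the CS libraries enlarges the error of such a test, so these low counts follow in part from how the members were chosen. The P-values of Os04g0473150 and of any other single member come from the same counts that chose it. They are given as a description and are no separate evidence of a change with treatment.

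The fold changes of the 62 genes all had the same sign, which the choice of genes low in CS replicate 1 largely set, so nothing is read from it. Their log2 fold changes of HDS over CS plants lay between 0.16 and 1.10, with a median of 0.45, against a median of 0.01 over all genes tested by edgeR's exactTest. None of them passed the test. Os05g0163250 had a log2 fold change of 0.66 (P = 0.487 by edgeR's exact test), and Os07g0683900 had 0.41 (P = 0.459 by the same edgeR test). The largest was that of Os08g0202400, at 1.10 (P = 0.0832 by edgeR's exact test).

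A single CS library decided the sign and size of these values. Without CS replicate 1 the median of the 62 genes was -0.28, and 6 of them stayed above 0. Without CS replicate 2 it was 2.01, with a range from 1.45 to 3.71. Os05g0163250 had a log2 fold change of -0.25 without CS replicate 1 and 3.71 without CS replicate 2. Os07g0683900 had -0.28 and 1.75 in the same order. In these fits the lone CS library was assumed to vary as much between plants as the HDS libraries did.

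The number of members called moved with them. Without CS replicate 2, the same limits called 62 members higher and 1 lower in HDS plants, against 9.62% higher and 9.02% lower of all genes tested. This fit sets HDS plants against the library for whose low level the 62 genes were chosen, and takes its spread from the HDS libraries that the rule held close. The count therefore repeats the choice and is no result about the members. The fit without CS replicate 1 is tied to the choice as well. It sets HDS plants against CS replicate 2, whose level relative to CS replicate 1 also chose the members. Its spread again comes from the HDS libraries that the rule held close. Its calls, given next, are therefore no result about the members either. Without CS replicate 1, 1 member was called higher and 7 were called lower, against 3.83% higher and 3.54% lower of all genes tested. Leaving out either HDS library gave 1 call among the members, as with all 4 libraries. Os01g0508500 moved the other way from the 62, with a log2 fold change of 0.69 with both CS libraries (P = 0.265 by edgeR's exact test), 2.09 without CS replicate 1 and -0.033 without CS replicate 2. Os04g0473150 stayed below 0 in each of these fits, at -0.93 without CS replicate 1 and -3.33 without CS replicate 2.

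**Figure D5:**
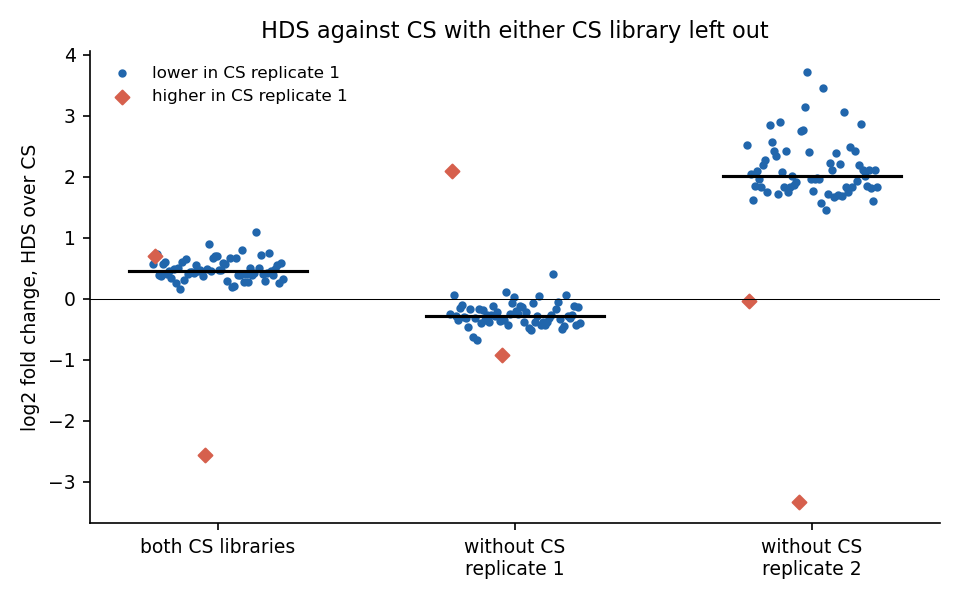
log2 fold change of HDS over CS plants for the 64 members with both CS libraries and with either left out, from edgeR's exactTest. Each point is 1 gene and the bar is the median of the 62 genes lower in CS replicate 1 (blue), at 0.45, -0.28 and 2.01 from left to right. Red diamonds are the 2 genes higher in CS replicate 1.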

How the data were processed

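Leaf RNA of 2 HDS and 2 CS plants was sequenced as 4 libraries, grouped by their sample labels. The authors used RSEM and build IRGSP-1.0 to obtain gene-level expected counts, which they deposited without normalization. Bowtie2, Trimmomatic and FastQC 0.11.7 are also named in the submitters' processing notes. RSEM divides reads that fit several genes, so counts that are not whole mark shared reads. Library totals lay between 15444235 and 17298384, which bounds counting error but not the spread between plants. With 2 replicates per treatment, P-values rest on little information about that spread.

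CPM was computed from column totals, with no pseudocount. For tests, expected counts were rounded to whole numbers. R 4.3.3 was used with the packages edgeR 4.0.16 (exactTest on genes with at least 1 count; glmQLFit and glmQLFTest on genes kept by filterByExpr; TMM) and DESeq2 1.42.0. P-values of edgeR were adjusted over all genes tested. DESeq2 adjusted only over the genes that passed its own default filter on mean counts, and the rest were counted as not called. The tests were checked on simulated data with known changes between treatments. No simulated library was made to stand apart, so the check does not cover the pattern of the members.

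The members and lists were chosen with earlier results of these data known. The genes named are the 10 with the widest CS fold among those lower in CS replicate 1, both higher ones, the 3 most abundant, those at the limits of the rule and any called by the quasi-likelihood test. Alternatives were other scalings, limits, filters and tests, a replicate block and each library left out. Lists of identifiers by function, written from general knowledge, held 0 members. As no table pairs the members with names or sequences, those lists were not read further, and keyword classes, marker genes and promoter motifs were not used here.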

Additional observations from a re-analysis of the deposited data

How the results depend on the processing

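The number of members was 64 in the report, 62 lower and 2 higher in CS replicate 1. It was 28 (26 lower) with a minimum of 50 counts, 136 (128 lower, 8 higher) with a limit of 3-fold between the CS libraries and 9 (9 lower, 0 higher) with 8-fold. With the stricter limit between the HDS libraries, 1 gene was higher. With counts that are not whole, 96 genes met the rule, 89 lower and 7 higher. The 219 genes with CS replicate 1 below the other libraries became 139 with a minimum of 50 counts and 169 with TMM scaling. The 13 genes with CS replicate 1 above the other libraries became 8 and 22 in the same order. The exchanged rule, with 5 genes, gave 3 with 50 counts, 3 with that stricter limit, 13 with 3-fold, 0 with 8-fold and 10 with counts that are not whole.

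Between HDS and CS plants, edgeR's exact test called 2340 genes, and 707 with adjusted P-values. The quasi-likelihood test called 155 genes, 419 with all genes of at least 1 count, and 547 were called by DESeq2. Replicate numbers were shared by the treatments, and the labels do not say whether they pair the plants. The replicate differences of CS and HDS plants had r = 0.004 across genes. With a single difference per treatment, this value cannot settle whether plants were paired. A replicate block gave 532 genes and 1 member by the quasi-likelihood test. With the block, 24 of the 64 members had an unadjusted P under 0.05 by this test, as did 2162 of all 22184 genes tested. Without it, 1 member and 2047 genes did. The block takes up part of the gap between the CS libraries that chose the members, so this rise follows in part from the choice. The members' median log2 fold change was 0.80 with the block, against 0.44 without it. When single libraries were omitted, the exact test called 1132 to 5430 genes and 1 to 63 members, and the quasi-likelihood test 64 to 2506 genes and 0 to 63 members. Over the same fits the median log2 fold change of the 64 members lay between -0.28 and 1.99. Single genes moved over these fits as well, as log2 fold changes from the lowest to the highest fit. They lay at -0.033 to 2.09 for Os01g0508500, -0.10 to 1.96 for Os01g0963600, -0.63 to 2.84 for Os02g0470600, -0.32 to 2.56 for Os02g0553802 and -0.68 to 2.41 for Os02g0708500. Further ranges were -0.19 to 2.89 for Os02g0830801, -3.33 to -0.93 for Os04g0473150, -0.35 to 2.75 for Os04g0555600, -0.43 to 3.14 for Os04g0675101 and -0.25 to 3.71 for Os05g0163250. The rest were -0.22 to 3.45 for Os06g0255200, -0.38 to 3.06 for Os07g0645200, -0.28 to 1.75 for Os07g0683900, -0.45 to 2.87 for Os09g0252700 and -0.14 to 2.11 for Os12g0516200.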
